A study of Homo sapiens with 16 samples.

Results

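All-trans retinoic acid (ATRA) and Corin were set directly against each other in SKNO-1, a human acute myeloid leukaemia line that carries the RUNX1-RUNX1T1 fusion. The comparison rests on 4 of the 16 RNA libraries in the series, chosen by their labels: 2 from SKNO-1 cells given 0.1 µM ATRA for 24 h and 2 from SKNO-1 cells given 0.1 µM Corin for 24 h. Cells of all SKNO-1 groups grew in medium with GM-CSF at 10 ng/mL. No control library entered the test. Libraries from SKNO-1 cells given the solvent DMSO (2) or both agents at 0.1 µM each (2) are described beside it, and the same contrast in U-937, a monocyte-like leukaemia line (2 libraries per agent), serves as the only other line. Labels do not say that the 2 libraries of a group came from separate cultures, so p-values measure only the spread between these libraries. SKNO-1 is a single established line, and the values below are for bulk RNA, in which fewer cells of a kind and less RNA per cell cannot be told apart.

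ATRA binds the retinoic acid receptors, which sit on DNA as dimers with retinoid X receptors, usually at repeated short motifs, and switch from holding corepressors to recruiting coactivators when the ligand arrives. The best known early targets are enzymes that break retinoic acid down and the receptor gene RARB itself. Corin acts at the opposite end of the same switch: it is a dual inhibitor of the CoREST corepressor complex, blocking the histone demethylase LSD1 (KDM1A) together with the histone deacetylases HDAC1 and HDAC2. In myeloid leukaemia cells both ATRA and LSD1 inhibitors are known as inducers of differentiation, so the comparison asks which genes set the agents apart.

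The 4 libraries held 33.7 and 37.8 M estimated counts with ATRA and 34.6 and 32.8 M with Corin. Replicates lay close together: over 9310 well-expressed genes the log2 difference within a pair had an SD of 0.112 for ATRA and 0.103 for Corin. The difference within the ATRA pair followed the GC content of the genes, with a correlation of -0.523, against -0.0592 within the Corin pair. Small differences between the agents are therefore also given with a trend in GC content removed where this changed a call named below. Myeloid identity was checked first, and all 6 myeloid markers (MPO, CD33, ANPEP, PTPRC, SPI1 and KIT) were expressed in the 4 libraries. Of the markers of other cells, 0 of 5 erythroid, 0 of 5 epithelial and 0 of 5 fibroblast genes had enough counts to be tested, and T cell, B cell and endothelial lists had 1, 2 and 2 of 5. The defining genes CD3E, MS4A1 and HBB were at 0 in all 4 libraries.

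The agents left SKNO-1 cells with widely different transcriptomes, and the large differences ran mostly in the direction of Corin. Of 16643 genes tested, 10113 (60.8%) were called different at an adjusted p under 0.05, with 5114 (30.7%) higher with Corin and 4999 (30.0%) higher with ATRA. Both Corin libraries lay above both ATRA libraries for 37.3% of the genes tested and below them for 42.2%. The near balance ended once size was considered. At least 2-fold differences, 16.5% of the genes tested, numbered 2347 (14.1%) higher with Corin and 396 (2.38%) higher with ATRA, and differences of at least 8-fold numbered 647 and 22. The median log2 fold change of all genes was 0.0076. Here and below log2 fold changes are Corin minus ATRA, expression is in CPM, counts scaled to a common library total, and p-values come from the quasi-likelihood test of edgeR, adjusted after Benjamini and Hochberg over all genes tested. With so large a share of genes called, a call by itself says little, and sizes are given throughout. Counts called in the gene lists below are to be read beside the 30.7% and 30.0% of all genes. With a trend in GC content removed, the calls were 4406 higher with Corin and 6368 higher with ATRA.

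**Figure D1:**
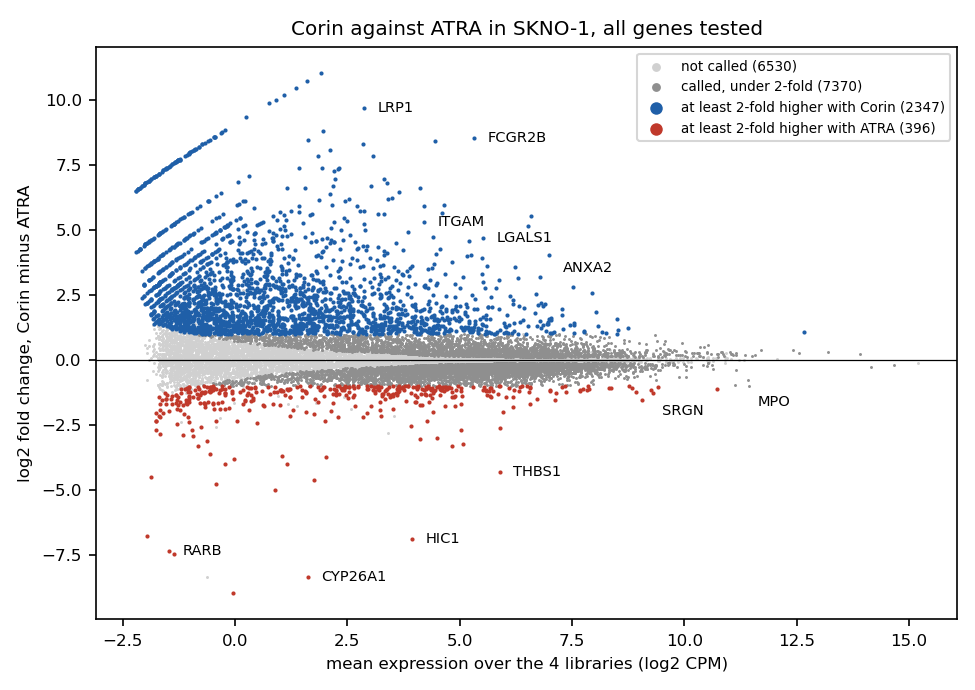
Each point is 1 of 16643 genes, with mean expression over the 4 libraries (log2 CPM) on the horizontal axis and the log2 fold change, Corin minus ATRA, on the vertical axis. Blue points (2347 genes at least 2-fold higher with Corin) reach far higher and are far more numerous than red points (396 genes at least 2-fold higher with ATRA). The slanting rows of points at the left edge are genes with 0 or few counts in 1 group, whose fitted values are not bounds.

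Most genes on the Corin side were low in DMSO. A gene with few counts in DMSO could enter the test only if an agent library held more, so the shares that follow are partly fixed by the filter and are a description. In the DMSO libraries, which the test did not use, 2398 of the genes tested lay under 0.5 CPM, and 46.2% of those were at least 2-fold higher with Corin against 3.34% with ATRA. The share was 20.6% of 4101 genes between 0.5 and 5 CPM, 5.55% of 5982 genes between 5 and 50 CPM, and 1.51% of 4162 genes above 50 CPM. On the ATRA side it went from 3.34% to 3.19%, 2.39% and 1.01% over the same bins. More genes were detected as well, with 23937 and 24150 genes holding at least 1 count in the Corin libraries and 22360 and 22492 in the ATRA libraries, at like depth. Protein-coding genes and long noncoding RNAs shared the imbalance: 1754 of 12594 coding genes and 436 of 2442 long noncoding RNAs were at least 2-fold higher with Corin, against 295 and 56 higher with ATRA.

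The 4 listed retinoic acid genes that differed most, CYP26A1, RARB, HIC1 and DHRS3, lay on the ATRA side and had few or no counts with Corin. Others of the list differed less, not at all or in the direction of Corin. CYP26A1, the cytochrome P450 enzyme that degrades retinoic acid (chromosome 10, 93073475 to 93077885, GRCh38), and RARB, the retinoic acid receptor gene that is itself a receptor target (chromosome 3, 24687887 to 25597932), are the classical examples. Both hold the repeated receptor motif in the promoter window, and their sequences are shown because these 2 genes had the strongest relative preference for ATRA among the 8 genes found with such a repeat. Each line is in the direction of the gene (plus strand), at chr10:93073797-93073825 and chr3:25428204-25428232 of GRCh38.p14, from RefSeq promoter windows, with the receptor motif copies in capitals:
CYP26A1: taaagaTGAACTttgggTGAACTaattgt
RARB: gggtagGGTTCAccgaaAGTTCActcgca

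In RARB the copies read GGTTCA and AGTTCA with 5 bases between them, and in CYP26A1 the same kind of repeat stands on the other strand, so that TGAACT is AGTTCA read backwards. The repeat begins 90 bases before the annotated start used for CYP26A1 and 53 bases before that of RARB. The search took AGGTCA as the consensus copy of the motif and accepted the variant spelled AGTTCA, the further variant spelled GGGTCA and also the variant spelled GGTTCA. A hit was any pair of copies in the same direction with 5 bases between, on both strands of windows from 250 bases before to 50 bases after each start. It occurred in 8 of 11002 tested genes with a window (0.0727%), in 2 of 248 at least 2-fold higher with ATRA (0.806%) and in 0 of 1475 at least 2-fold higher with Corin. The other 6 genes (C17orf53, ATXN1L, PHF8, PANK2, COL24A1 and CFLAR) differed little, with log2 fold changes from -0.46 to 0.55. Spacings of 2 and 1 bases were searched too, and occurred in 5 and 25 of the 11002 genes. Of the 248 ATRA genes 0 had either, and 2 of the 1475 Corin genes had the spacing of 1 base. With any of these spacings the shares were 0.345% of all genes, 0.806% of the ATRA genes and 0.136% of the Corin genes. A match is a description of the letters in this window only.

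CYP26A1 stood at 5.88 and 6.13 CPM with ATRA and at 0.0285 and 0 CPM with Corin, which is 423 counts against 1 and a ratio of 416 (exact 95% counting interval 74.2 to 16456, adjusted p = 1.69e-15). RARB had 0.540 and 0.649 CPM with ATRA and 0 counts in either Corin library, at least 13.8-fold higher with ATRA taking 3 counts for the Corin pair as the floor (adjusted p = 2.44e-06). With both agents CYP26A1 stood at 19.8 and 21.7 CPM and RARB at 2.34 and 2.10 CPM, above every ATRA library. HIC1, a transcriptional repressor known as a retinoic acid target, separated the agents more precisely, at 28.1 and 32.4 CPM with ATRA against 0.228 and 0.264 CPM with Corin (log2 fold change -6.88, SE 0.17, adjusted p = 9.94e-22). DHRS3, a retinal reductase that lowers the supply of retinoic acid, was at 3.18 and 3.70 CPM against 0.114 and 0.0881 CPM (log2 fold change -5.00, SE 0.35). In these 4 genes the ATRA and Corin libraries did not overlap, and Corin left them at or near the DMSO level, where DHRS3 and RARB had 0 counts.

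Of 21 genes listed as retinoic acid responsive, 15 were tested, 10 were higher with ATRA and 3 higher with Corin, with a median log2 fold change of -0.67 against 0.0076 over all genes. At least 2-fold differences numbered 7 higher with ATRA and 2 higher with Corin. The latter were CRABP2 (log2 fold change 3.18) and RARG, described below. PLAAT4, a phospholipase known to be induced by retinoids, was at 4.35 and 5.03 CPM with ATRA and 1.20 and 1.06 CPM with Corin. For other genes of the ATRA side the gap was smaller. TGM2, a transglutaminase, had a log2 fold change of -1.01 (SE 0.112), CEBPE, a granulocyte transcription factor, -1.21 (SE 0.118), and CD38, a surface enzyme that ATRA induces in myeloid cells, only -0.49 (SE 0.0429), and Corin too stood above DMSO. CD38 was at 562 and 543 CPM with ATRA, 386 and 379.7 with Corin and 216 and 242 with DMSO. ASB2, a ubiquitin ligase subunit induced by ATRA in promyelocytic leukaemia, did not separate the agents at all (log2 fold change 0.03, SE 0.21, adjusted p = 0.909), and both agents' libraries lay between 1.95 and 2.43 CPM against 0.347 and 0.421 CPM with DMSO. RDH10, which makes retinal, was lower with either agent than with DMSO (33.5 and 32.4 CPM with ATRA, 26.5 and 24.7 with Corin, 75.1 and 86.8 with DMSO).

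Among the receptors themselves the agents favoured different members. RARG was higher with Corin, at 5.13 and 6.32 CPM against 1.08 and 1.24 CPM with ATRA (log2 fold change 2.33, SE 0.191, adjusted p = 7.19e-11), and so was the partner RXRA, at 8.95 and 8.64 against 2.73 and 2.86 CPM (1.69, SE 0.141). RARA, the main receptor of myeloid cells, differed little, at 9.93 and 11.6 CPM with ATRA and 8.75 and 7.67 CPM with Corin (-0.35, SE 0.122). Its call was lost without ATRA replicate 2 (adjusted p = 0.139) or without Corin replicate 2 (0.119), with DESeq2 (0.0814) and with all 8 SKNO-1 libraries in the fit (0.15). The coactivator NCOA3 (-0.64, SE 0.0461) and the corepressor NCOR1 (-0.43, SE 0.0439) were somewhat higher with ATRA, while EP300 did not pass the test (0.04, SE 0.061, adjusted p = 0.629). Over the 14 receptors and cofactors listed, 13 were tested, 4 were higher with Corin and 6 with ATRA, at a median of 0.00. The share higher with Corin, 30.8%, was that of all genes (30.7%).

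Of the 10 coding genes with the largest excess with ATRA, HIC1 was described above, and the others have varied roles. THBS1, the adhesive glycoprotein thrombospondin, was at 110.2 and 117 CPM with ATRA and 5.61 and 5.55 CPM with Corin (log2 fold change -4.30, SE 0.0694, adjusted p = 3.04e-25). CD180, a toll-like surface receptor, was at 51.2 and 52.5 against 4.73 and 5.49 CPM (-3.30, SE 0.0835). SLC2A5, the fructose transporter, was at 60.6 and 61.8 against 6.73 and 5.99 CPM (-3.22, SE 0.0766). All of these were also above their DMSO libraries with ATRA, as THBS1 had 2.26 and 2.45 CPM and SLC2A5 8.50 and 6.84 CPM there.

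VSIR, an immune checkpoint protein of the B7 kind, was at 29.1 and 32.0 CPM with ATRA and 3.31 and 3.94 CPM with Corin (-3.04, SE 0.103). ADAMTS14, a procollagen protease, was at 36.9 and 43.0 against 4.76 and 5.02 CPM (-2.99, SE 0.0929). For both genes Corin also lay above DMSO, and both agents together gave the highest values, 46.4 and 47.1 CPM for VSIR and 136 and 145 CPM for ADAMTS14. CLC, the Charcot-Leyden crystal protein of eosinophils and basophils, was at 57.9 and 56.8 CPM with ATRA and 8.55 and 8.43 CPM with Corin, on either side of DMSO at 21.8 and 21.7 CPM (-2.71, SE 0.0719). TRIB1, a pseudokinase that directs degradation of C/EBP proteins, likewise lay on either side of DMSO, at 32.6 and 32.0 CPM with ATRA, 6.16 and 6.11 with Corin and 14.8 and 16.2 with DMSO (-2.36, SE 0.0836). SIPA1, a GTPase activator of Rap proteins, had a log2 fold change of -2.55 (SE 0.103), and its DMSO libraries were far apart at 9.02 and 4.29 CPM. EIF1B, a translation initiation factor, had -2.61 (SE 0.0648), but it begins next to the antisense gene EIF1B-AS1 (-1.90, SE 0.116), and strand use in counting is not stated, so reads of the pair cannot be assigned with certainty.

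**Figure D2:**
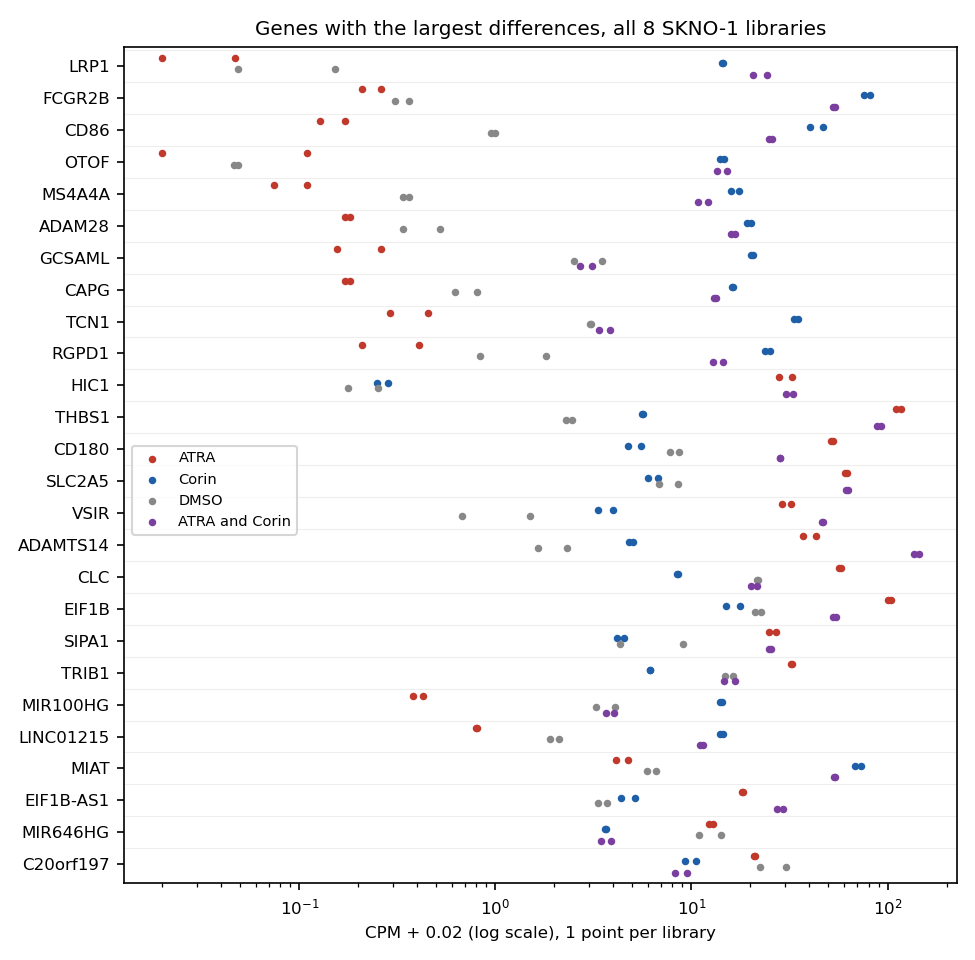
The horizontal axis gives CPM + 0.02 on a log scale for the 20 coding genes and 6 long noncoding RNAs with the largest differences, and each point is 1 SKNO-1 library (2 per group). Corin (blue) and ATRA (red) never overlap because only genes with the groups apart were chosen. For the genes at the top the red points lie under 0.5 CPM. The combination (purple) sits near Corin for LRP1 and OTOF, near ATRA for HIC1 and SLC2A5, and near DMSO (grey) for GCSAML, TCN1 and MIR100HG.

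Among genes averaging at least 5 CPM, the 10 coding genes with the largest excess with Corin had under 0.5 CPM in each ATRA library, and 4 of them encode membrane proteins of myeloid cells. LRP1, the endocytic receptor for apolipoproteins and protease complexes (chromosome 12, 57128483 to 57213361), had 0 and 0.027 CPM with ATRA, which is 1 count, and 14.5 and 14.3 CPM with Corin (ratio 1013, counting interval 181 to 40034, adjusted p = 2.67e-19). CD86, the costimulatory ligand of antigen-presenting cells (chromosome 3, 122055362 to 122121139), was at 0.150 and 0.108 against 46.8 and 40.0 CPM (log2 fold change 8.41, SE 0.172, adjusted p = 8.56e-23). FCGR2B, the inhibitory Fc receptor for IgG, was at 0.240 and 0.189 against 81.0 and 76.0 CPM (8.54, SE 0.129), a value that is uncertain because near-identical Fc receptor genes share reads. MS4A4A, a macrophage tetraspan protein, was at 0.0900 and 0.054 against 17.5 and 15.9 CPM (7.84, SE 0.241). In DMSO these 4 genes lay between 0.0289 and 0.974 CPM, and for each gene both ATRA libraries stood under both DMSO libraries. The value of 0.0289 CPM was that of LRP1, against 0.027 CPM with ATRA. At so few counts the order of ATRA and DMSO for LRP1 is not informative.

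The other coding genes of this group were more mixed in function. ADAM28, a membrane metalloprotease of lymphoid and myeloid cells, was at 0.150 and 0.162 against 19.2 and 20.2 CPM (6.98, SE 0.201), and CAPG, an actin-capping protein of macrophages, at 0.150 and 0.162 against 16.0 and 16.2 CPM (6.69, SE 0.209). OTOF, which encodes the calcium sensor otoferlin, had 3 counts with ATRA and 990 with Corin (ratio 336, counting interval 115 to 1631). GCSAML, a signalling adaptor, and TCN1, the vitamin B12 carrier of neutrophil granules, stood out because ATRA lay well under DMSO. GCSAML was at 0.240 and 0.135 CPM with ATRA, 2.49 and 3.47 with DMSO and 20.7 and 20.2 with Corin, and TCN1 at 0.270 and 0.432, 3.07 and 3.03, and 35 and 33.4 CPM. With both agents GCSAML returned to 3.09 and 2.67 CPM and TCN1 to 3.37 and 3.84 CPM. RGPD1 (6.45, SE 0.182) belongs to a family of near-identical copies, so its value is uncertain.

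Long noncoding RNAs showed the same imbalance. MIR100HG, the host transcript of a microRNA cluster, was at 0.360 and 0.405 CPM with ATRA and 13.9 and 14.3 CPM with Corin (5.23, SE 0.184), again with DMSO between at 3.24 and 4.05 CPM. MIAT was at 4.11 and 4.73 against 68.6 and 73.3 CPM (4.04, SE 0.0817), and LINC01215 at 0.780 and 0.784 against 14 and 14.4 CPM (4.22, SE 0.161). On the ATRA side the differences were smaller. MIR646HG (-1.76, SE 0.128) and C20orf197 (-1.04, SE 0.0932), neighbours on chromosome 20, had DMSO libraries at 10.9 and 14.1 CPM and at 22.4 and 30.2 CPM, near or above the ATRA level.

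The subunits of the complex that Corin inhibits differed little between the agents. KDM1A, the demethylase, was at 256 and 259 CPM with ATRA and 270.2 and 261 CPM with Corin (0.08, SE 0.0424, adjusted p = 0.0867). HDAC2 (-0.02, SE 0.044) and RCOR1, the scaffold (0.09, SE 0.0451), did not pass the test either, and HDAC1 was slightly higher with ATRA (-0.26, SE 0.0442). All 14 genes of the complex and its recruiters were tested, 7 were higher with Corin and 2 with ATRA, at a median of 0.11. In a fit of all 8 SKNO-1 libraries 3 were higher with Corin in place of 7, and with the GC trend removed 6 were higher with Corin and 4 with ATRA, at a median of 0.01. The exception in size was GFI1B, a zinc finger repressor that recruits LSD1 and that LSD1 represses, at 0.0900 and 0.0811 CPM with ATRA and 4.27 and 3.85 CPM with Corin (5.56, SE 0.341). Its relative GFI1 was high and nearly equal, at 375 and 382 against 399 and 411 CPM, and its call was lost with the GC trend removed (adjusted p = 0.108) and with all 8 SKNO-1 libraries (0.146).

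Genes known to be induced by deacetylase inhibitors lay on the Corin side. Of 12 listed, 11 were tested, 9 were higher with Corin and 0 with ATRA, at a median of 1.5. CDKN1A, an inhibitor of cyclin-dependent kinases, was at 2.34 and 1.84 against 20.3 and 17.1 CPM (3.21, SE 0.141), with DMSO at 4.74 and 4.79 CPM. CDKN1C, of the same family, was at 0.030 and 0.108 against 1.80 and 2.09 CPM (4.74, SE 0.463). SYT11, a vesicle protein (1.51, SE 0.0681), CLU, the chaperone clusterin (2.39, SE 0.127), and TXNIP, a thioredoxin-binding protein (0.80, SE 0.0428), were higher with Corin too. GADD45B (0.18, SE 0.136) and MT1X (0.05, SE 0.176) did not pass.

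Among differentiation genes, the monocyte and macrophage list favoured Corin. Of 26 genes 22 were tested, 17 were higher with Corin and 3 with ATRA, at a median of 1.93. The share higher with Corin was 77.3%, against 30.7% over all genes. Of the 22, 16 had at least 10 counts in each ATRA library, and a gene that entered the test only through Corin had to differ. ITGAM, the integrin chain CD11b used as the standard marker of myeloid differentiation, was at 0.960 and 0.865 CPM with ATRA and 37.1 and 33.9 CPM with Corin (5.32, SE 0.121, adjusted p = 1.97e-22). It reached 116 and 114 CPM with both agents. VCAN, a proteoglycan of classical monocytes, was at 0.810 and 1.08 against 49.6 and 44.1 CPM (5.66, SE 0.119), and LY96, the cofactor of toll-like receptor signalling, at 0.030 and 0.162 against 8.83 and 7.90 CPM (6.39, SE 0.292). CX3CR1, a chemokine receptor, had 2 counts with ATRA and 138 with Corin (ratio 70.2, counting interval 19.1 to 586).

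Smaller gaps in the same direction were seen for CD68, a macrophage lysosomal protein (1.29, SE 0.0755), and for FCGR2A (2.10, SE 0.0493). The FCGR2A value may be affected by shared reads as that of FCGR2B is. The signalling adaptors FCER1G (2.33, SE 0.16) and TYROBP (1.61, SE 0.186) were higher with Corin too. The exceptions were TLR4 (-0.79, SE 0.0546), SIRPA (-0.75, SE 0.122) and TLR2, higher with ATRA, the last with a log2 fold change of -0.20 that lost its call without ATRA replicate 1 (adjusted p = 0.15) or without Corin replicate 2 (0.0897), as with DESeq2 (0.102) and with all 8 SKNO-1 libraries (0.0744). CD14, the classical monocyte antigen, had 0 counts with ATRA and 7 with Corin, and MSR1 and CD36 had 0 counts with either.

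Genes of antigen presentation by MHC class II also lay on the Corin side. Of 12 genes 9 were tested and all 9 of those were at least 2-fold higher with Corin, at a median of 2.21, of which 6 had at least 10 counts in each ATRA library. HLA-DRA was at 20.6 and 18.9 CPM with ATRA and 79.7 and 77.0 CPM with Corin (2.03, SE 0.0605), around DMSO at 33.0 and 29.5 CPM. CD74, the invariant chain, was at 92.5 and 103 against 226 and 206 CPM (1.19, SE 0.0536), and CIITA, the master activator of the class, at 11.8 and 12.2 against 33.8 and 34.9 CPM (1.55, SE 0.0737). HLA-DMB had 0 counts with ATRA and 93 with Corin, at least 31.5-fold higher. Near-identical HLA-DRB copies make HLA-DRB1 and HLA-DRB5 uncertain.

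**Figure D3:**
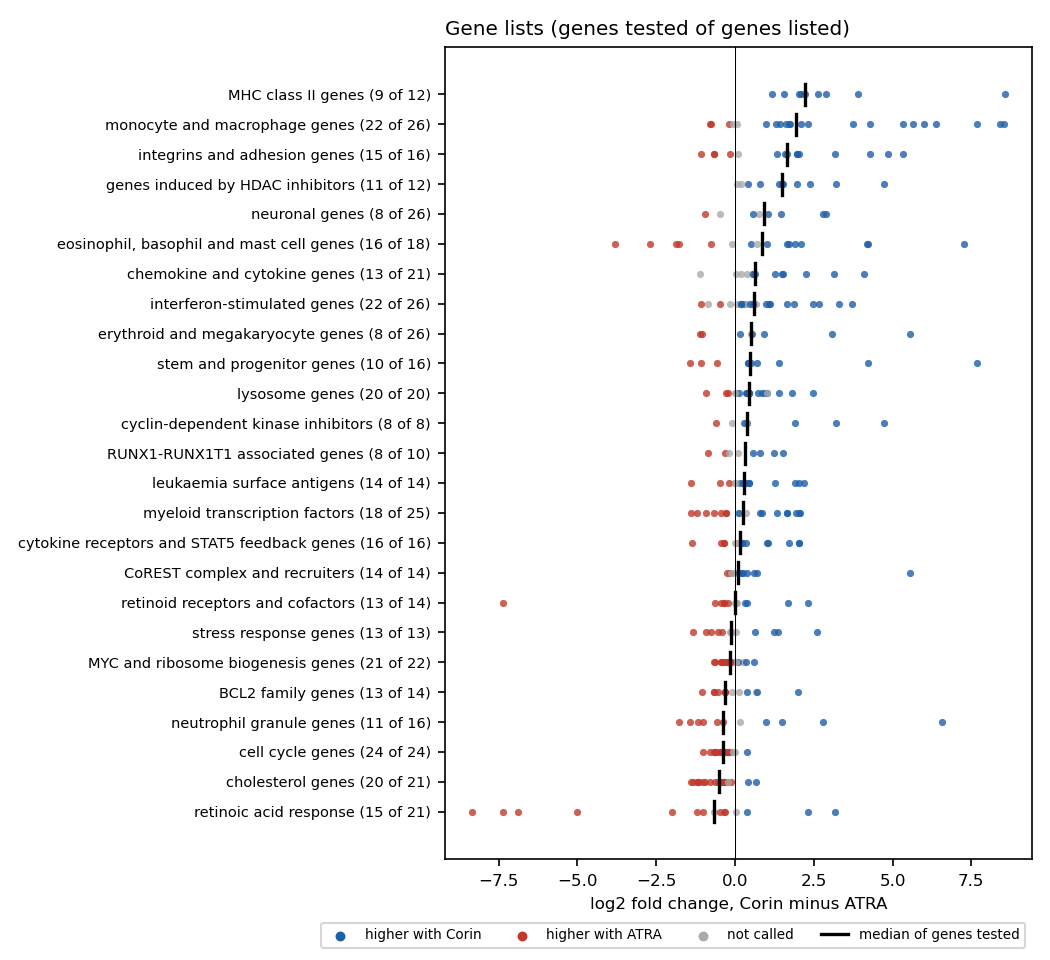
Each row is 1 gene list and each point 1 tested gene, with the log2 fold change, Corin minus ATRA, on the horizontal axis (blue called higher with Corin, red higher with ATRA, grey not called). Black bars are medians, from 2.21 for MHC class II genes at the top to -0.67 for retinoic acid response genes at the bottom, and most lists spread to both sides of 0.

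Integrins and adhesion molecules leaned to Corin, with exceptions. Of 16 genes 15 were tested, 10 were higher with Corin and 4 with ATRA, at a median of 1.64. At least 2-fold differences numbered 10 higher with Corin and 1 higher with ATRA. CD44, the hyaluronan receptor, was at 186 and 182 CPM with ATRA against 544 and 530.3 CPM with Corin (1.59, SE 0.0436). ITGA5, the fibronectin receptor chain, ran the other way, at 443 and 460.3 against 213 and 202 CPM (-1.08, SE 0.0443), with both agents giving 458 and 448 CPM. ICAM1 was also higher with ATRA (-0.66, SE 0.068), whereas ICAM3 was higher with Corin (1.96, SE 0.064).

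Interferon-stimulated genes and cytokine genes were more often higher with Corin than with ATRA. Of 26 interferon-stimulated genes 22 were tested, 14 were higher with Corin and 2 with ATRA, at a median of 0.60. The count higher with Corin was 10 of 22 with the GC trend removed or with all 8 SKNO-1 libraries in the fit. The largest were BST2, the virion tether tetherin, at 3.36 and 2.84 against 41.5 and 37.2 CPM (3.71, SE 0.098), and RSAD2, the antiviral enzyme viperin, at 7.98 and 8.89 against 83.0 and 78.9 CPM (3.30, SE 0.0698). On the ATRA side of the list USP18 had a log2 fold change of -1.08. IRF1, which retinoids are known to induce, belongs to the list of myeloid transcription factors instead. It was higher with ATRA, at 72.7 and 75.6 against 27 and 28.3 CPM (-1.38, SE 0.0571). Of 21 chemokine and cytokine genes 13 were tested, 8 were higher with Corin and 0 with ATRA, but only 9 of the 13 had at least 10 counts in each ATRA library. CXCL8, a neutrophil attractant, was at 12 and 10.4 against 32.7 and 30.3 CPM (1.54, SE 0.0815), and the receptor CXCR4 at 18.4 and 19.9 against 46.7 and 44.1 CPM (1.28, SE 0.0675).

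All 16 cytokine receptor and feedback genes were tested, 8 were higher with Corin and 4 with ATRA. IL3RA and IL6R, chains of the interleukin receptors, each had a log2 fold change of 2.02 (SE 0.164 and 0.113). The feedback inhibitors parted: SOCS2 was higher with Corin, at 87.9 and 89.1 against 178 and 175 CPM (1.04, SE 0.0443), and SOCS3 higher with ATRA, at 67.1 and 74.8 against 28.3 and 25.8 CPM (-1.35, SE 0.0633).

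Granule genes of the neutrophil line went both ways. MPO, myeloperoxidase, was at 3571 and 3902 CPM with ATRA and 1881 and 1756 CPM with Corin (-1.0, SE 0.0524), and ELANE, neutrophil elastase, at 37.1 and 41.6 against 11.5 and 11.0 CPM (-1.77, SE 0.0775). For both genes DMSO lay nearer to ATRA or between, at 3652 and 2619.5 CPM and at 48.9 and 20.7 CPM. PRTN3 (-1.18, SE 0.0835) and PRSS57 (-1.43, SE 0.091), proteases of the same granules, followed. Of 16 genes 11 were tested, 6 were higher with ATRA and 4 with Corin, at a median of -0.37. The opposite members were LYZ, the lysozyme of monocytes and neutrophils, at 48.7 and 45.4 against 326 and 306 CPM (2.79, SE 0.0508), CTSG (1.00, SE 0.12), RETN (1.5, SE 0.181) and CAMP, with 0 counts with ATRA and 23 with Corin. The secondary granule genes LTF, LCN2 and MMP8 had 4, 0 and 0 counts in the 4 libraries together.

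Genes of eosinophils, basophils and mast cells also went both ways. Of 18 genes 16 were tested, 9 were higher with Corin and 5 with ATRA, at a median of 0.86. Higher with ATRA were, besides CLC, EPX, eosinophil peroxidase, at 8.76 and 10.6 against 2.51 and 3.06 CPM (-1.76, SE 0.15), PRG3 (-3.80, SE 0.453), PRG2 (-0.75, SE 0.0671) and the chemokine receptor CCR3 (-1.87, SE 0.541), whose call was lost without Corin replicate 1 (adjusted p = 0.0924) and with DESeq2 (0.0705). Among those higher with Corin were the eosinophil genes RNASE2 (0.51, SE 0.0473), IL5RA (1.01, SE 0.0494) and SIGLEC8 (1.71, SE 0.345). FCER1A, the IgE receptor chain, was at 0.0900 and 0.027 against 8.66 and 9.46 CPM (7.27, SE 0.296), CPA3, a mast cell protease, at 1.35 and 1.41 against 24.2 and 25.9 CPM (4.22, SE 0.129), and HDC, which makes histamine, had a log2 fold change of 4.19 (SE 0.352). GATA2, the transcription factor of that line, was at 12.9 and 12.8 against 37.8 and 41.0 CPM (1.66, SE 0.0736). For CPA3 and HDC the ATRA libraries lay under DMSO (9.28 and 10.0 CPM, and 0.752 and 0.684 CPM).

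Transcription factors and progenitor genes did not follow a single direction. Of 25 myeloid transcription factors 18 were tested, 9 were higher with Corin and 7 with ATRA. Of the C/EBP family, CEBPA was higher with ATRA, at 14.9 and 15.3 against 10.1 and 8.55 CPM (-0.66, SE 0.107). CEBPD (-0.91, SE 0.141) and CEBPE, as above, were higher with ATRA too, while CEBPB did not pass (0.09, SE 0.127). RUNX2 (1.35, SE 0.0589), EGR1 (2.05, SE 0.162), JUN (1.94, SE 0.191) and FOS (1.66, SE 0.15) were higher with Corin, but EGR1 and FOS were highest in DMSO, at 12.4 and 18.6 CPM and at 9.92 and 8.98 CPM. Of 10 genes tied to the fusion protein 8 were tested, 4 were higher with Corin and 2 with ATRA. RUNX1 was at 120.5 and 114 against 192 and 206 CPM (0.81, SE 0.0474) and RUNX1T1 at 109.8 and 96.4 against 147 and 148 CPM (0.56, SE 0.0531).

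Of 16 stem and progenitor genes 10 were tested, 7 were higher with Corin and 3 with ATRA. CD34, the progenitor antigen, was at 0.060 and 0.135 CPM with ATRA and 1.85 and 1.88 CPM with Corin (4.22, SE 0.43), and ERG, a factor of stem cells, at 70.4 and 68.9 against 174 and 181 CPM (1.39, SE 0.0463). MYB was higher with Corin (0.71, SE 0.0437). KIT, the stem cell factor receptor, went the other way, at 631 and 626 against 297 and 282 CPM (-1.08, SE 0.0438), and LMO2, an adaptor of haematopoietic factors, at 110.0 and 105 against 40.2 and 37.3 CPM (-1.43, SE 0.0525). All 14 leukaemia surface antigens were tested, 9 were higher with Corin and 3 with ATRA. Among them CD52 (1.89, SE 0.0752), ANPEP (1.27, SE 0.0564) and HAVCR2 (2.19, SE 0.205) were higher with Corin and FUT4, which makes the CD15 antigen, was higher with ATRA, at 98.1 and 93.3 against 34.9 and 35.3 CPM (-1.41, SE 0.0527). CD33, the target of antibody therapy, differed by 0.36 (SE 0.0453).

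Genes of proliferation were modestly lower with Corin. All 24 cell cycle genes were tested, 18 were higher with ATRA and 1 with Corin, at a median of -0.37. The replication helicase genes were the most separated, with MCM5 at 116 and 129.5 against 60.0 and 58.4 CPM (-1.01, SE 0.0522), MCM7 at -0.79 (SE 0.0449) and MCM2 at -0.66 (SE 0.0444). CCNA2, cyclin A, had -0.58 (SE 0.0452). The marker of cycling cells MKI67 did not pass the test (-0.01, SE 0.0431, adjusted p = 0.818), and TOP2A, a topoisomerase of dividing cells, was higher with Corin, at 716 and 707 against 923 and 888 CPM (0.39, SE 0.0439). Of 22 MYC and ribosome biogenesis genes 21 were tested, 12 were higher with ATRA and 3 with Corin, at a median of -0.16, and MYC itself was at 378 and 414 against 316 and 308 CPM (-0.30, SE 0.0457). Of the 8 cyclin-dependent kinase inhibitors, all tested, 5 were higher with Corin and 1 with ATRA, CDKN2C (-0.60, SE 0.0523).

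Cholesterol synthesis was lower with Corin across most of the pathway. Of 21 genes 20 were tested, 17 were higher with ATRA and 2 with Corin, at a median of -0.50. HMGCS1, which commits acetyl units to the pathway, was at 324 and 311 CPM with ATRA and 139 and 136 CPM with Corin (-1.17, SE 0.044), with DMSO at 375 and 399 CPM. SQLE, squalene epoxidase, was at 308 and 316 against 155 and 147 CPM (-1.0, SE 0.0439), LSS at 65.4 and 66.7 against 28.7 and 29.7 CPM (-1.14, SE 0.0569), and MVK had -1.34 (SE 0.111). ABCA1, which exports cholesterol, was also higher with ATRA, at 75.6 and 76.1 against 27.6 and 28.1 CPM (-1.41, SE 0.0555), although it does the opposite of synthesis and DMSO stood lower, at 7.52 and 11.3 CPM. ABCG1, another exporter (0.67, SE 0.073), and MYLIP, which degrades the LDL receptor (0.40, SE 0.0599), were higher with Corin.

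Lysosomal genes leaned to Corin, with 14 of 20 higher and 3 lower at a median of 0.45. CTSH, a cathepsin, was at 11.7 and 11.9 against 65.9 and 62.4 CPM (2.48, SE 0.0671), while GLA was higher with ATRA (-0.92, SE 0.0496). Of 14 BCL2 family genes 13 were tested, 3 were higher with Corin and 7 with ATRA, the latter 4 with all 8 SKNO-1 libraries in the fit. BMF, a killer protein of the family, was at 4.86 and 5.05 against 19.8 and 19.0 CPM (2.01, SE 0.109), BCL2 itself differed by 0.38 (SE 0.0477), and BCL2A1, a survival protein, was higher with ATRA (-1.06, SE 0.132). Stress genes had no common direction, with 4 of 13 higher with Corin (30.8%, against 30.7% over all genes) and 5 higher with ATRA.

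Many genes of other lineages had too few counts to test. Of 26 erythroid and megakaryocyte genes 18 could not be tested, among them the globin genes HBB, HBG1 and HBA2 with 0 counts in all 4 libraries, and of 26 neuronal genes 18 could not be tested. Of the 8 erythroid and megakaryocyte genes tested, 5 were higher with Corin and 2 with ATRA, at a median of 0.52. Of the 8 neuronal genes tested, 5 were higher with Corin, 4 of them at least 2-fold, and 1 with ATRA, at a median of 0.91, and 5 of the 8 had at least 10 counts in each ATRA library. With all 8 SKNO-1 libraries in the fit 3 neuronal genes were higher with Corin. The neuronal genes higher with Corin by at least 2-fold (SYN1, SCG2, UNC13A and RAB3A) reached 1.29 CPM at most. RAB3A lost its call without ATRA replicate 1 (adjusted p = 0.119), without Corin replicate 1 (0.138), with DESeq2 (0.132) and with all 8 SKNO-1 libraries (0.0542). CELSR3, a cadherin, was the gene higher with ATRA, at 25.6 and 26.9 against 13.4 and 12.8 CPM (-0.96, SE 0.0764). ITGA2B, the platelet integrin chain, was well expressed, at 4.20 and 4.46 CPM with ATRA and 35.6 and 36.1 CPM with Corin (3.09, SE 0.0867). TFRC, the transferrin receptor that erythroid precursors and dividing cells use to take up iron, ran the other way, at 2360.4 and 2342 against 1066 and 1042 CPM (-1.12, SE 0.046).

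The differences also reached the most abundant transcripts. Among genes past 2-fold, chosen here by their level in the authors' TPM, a scale that allows for gene length, after values were seen, SAMSN1, an adaptor that dampens signalling, was at 130.5 and 124 TPM with ATRA and 320.0 and 309.7 TPM with Corin. LGALS1, the lectin galectin, was at 6.94 and 6.37 against 181 and 175 TPM (log2 fold change from counts 4.70, SE 0.0772), and ANXA2, a membrane-binding annexin, at 11.3 and 9.55 against 176 and 167 TPM (4.04, SE 0.061). On the ATRA side the most abundant was SRGN, the granule proteoglycan serglycin, at 695 and 656 against 298 and 273 TPM (-1.27, SE 0.0464). HMGN2, a nucleosome-binding protein, followed at 552 and 529.7 against 243 and 228 TPM (-1.22, SE 0.0446). SRGN stood above DMSO with ATRA (893 and 897 against 332 and 390.2 CPM), whereas HMGN2 stood at the DMSO level with ATRA (677 and 689 against 663 and 635 CPM) and lower with Corin (294 and 276 CPM).

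At the extreme, 94 genes had at least 10 counts in each Corin library and 0 in both ATRA libraries, 74 of them protein coding, and 22 of the 94 had 0 counts in DMSO as well. They include GBP1, an interferon-induced GTPase with 2.22 and 2.32 CPM (at least 53.3-fold higher), CD163, the haemoglobin scavenger receptor of macrophages with 0.997 and 0.441 CPM (at least 17.0-fold), and TLR7, a sensor of single-stranded RNA with 0.541 and 0.529 CPM (at least 12.6-fold), 3 genes chosen after their values were seen. Only 6 genes had the converse pattern, 4 of them protein coding, of which RARB was the one with a known part in retinoid signalling. At this depth 0 counts do not show that a gene is silent.

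The DMSO libraries, left out of the test, show which agent stood apart from the solvent. On a log2 scale that runs from 0 at the ATRA mean to 1 at the Corin mean (0.5 CPM added), DMSO had a median position of 0.14 over the 2347 genes at least 2-fold higher with Corin, and 2032 of them (86.6%) lay nearer to ATRA. Over the 396 genes at least 2-fold higher with ATRA, DMSO had a median of 0.35, with 243 (61.4%) nearer to ATRA and 153 nearer to Corin. The latter value rested on the library: DMSO replicate 1 was nearer to ATRA for 63.6% of these genes and replicate 2 for 47.5%, against 83.9% and 85.1% for the Corin set.

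**Figure D4:**
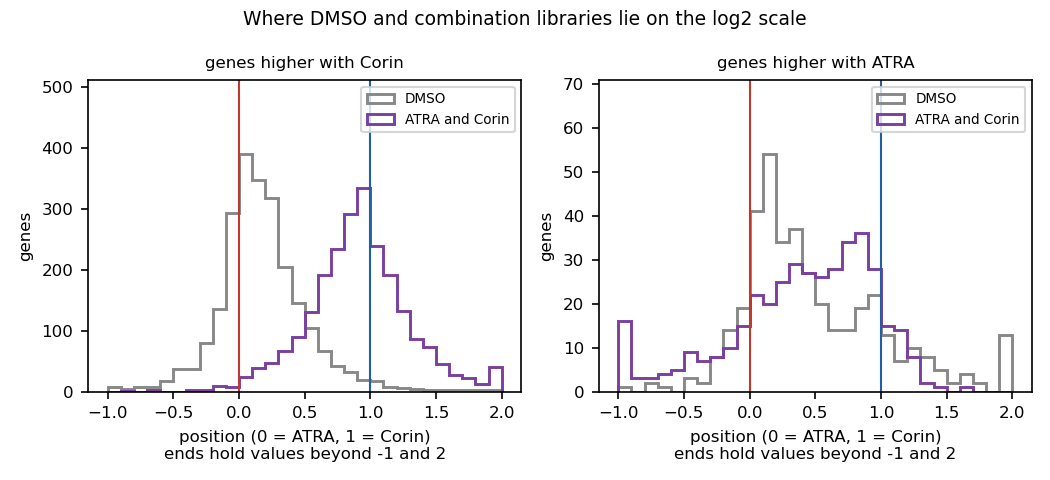
The horizontal axis is the position of DMSO (grey) and of the combination (purple) between ATRA (0, red line) and Corin (1, blue line) on the log2 scale, and the vertical axis counts genes. For genes at least 2-fold higher with Corin (left) DMSO gathers near 0 with a median of 0.14 and the combination near 1 with a median of 0.91. For genes at least 2-fold higher with ATRA (right) both spread between the ends, with medians of 0.35 and 0.48.

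Cells given both agents lay near Corin for the Corin genes, at a median position of 0.91, and 873 of 2347 passed beyond the Corin level. For the ATRA genes they were spread, with a median of 0.48, 203 nearer to ATRA and 193 nearer to Corin. HIC1, DHRS3 and SLC2A5 were on the ATRA side or beyond it. HIC1 stood at 30.5 and 32.9 CPM with both agents, DHRS3 at 29.1 and 29.6 CPM and SLC2A5 at 61.5 and 62.9 CPM. MIR646HG at 3.86 and 3.45 CPM, HMGN2 at 268 and 273 CPM and TFRC at 1022 and 1010.3 CPM were near or under the Corin level instead. These positions describe genes chosen on the ATRA and Corin libraries and carry no test.

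In U-937 the same contrast gave a different picture. There 1208 genes were at least 2-fold higher with Corin and 915 at least 2-fold higher with ATRA, of 16792 tested, against 2347 and 396 in SKNO-1. A contrast of contrasts, fitted on both lines together, called the difference between the lines for 7422 of 18874 genes (39.3%). Of the 2347 Corin genes of SKNO-1, 1551 were tested in U-937, where 618 (39.8%) were called in the same direction, 228 (14.7%) in the opposite direction and 705 not at all. Over all U-937 genes tested, 22.8% were called higher with Corin and 19.8% higher with ATRA. Of the 396 ATRA genes, 336 were tested, with 142 (42.3%) the same, 40 (11.9%) opposite and 154 not called. The lines differ in origin and in GM-CSF in the medium, and these cannot be told apart.

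Of 13 retinoic acid genes tested in both lines, 7 were called higher with ATRA and 3 higher with Corin in U-937, the difference was called for 5, and RDH10 was called in opposite directions. HIC1 had a log2 fold change of -7.48 (SE 0.237) in U-937 and the difference between the lines was not called (0.59, SE 0.541, adjusted p = 0.464), and DHRS3 had -3.94 (SE 0.145). RARB had 1443 counts with ATRA and 0 with Corin in U-937. All 7 class II genes tested in both lines were called higher with Corin in each, and VCAN (5.19, SE 0.162) and LYZ (2.96, SE 0.11) were higher with Corin in U-937 as in SKNO-1. CD38 and TGM2 were far more separated in U-937, with log2 fold changes of -4.72 (SE 0.0929) and -6.35 (SE 0.13), and the differences between lines of 4.23 and 5.34 were called (adjusted p = 2.05e-13 and 5.95e-12).

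The monocyte genes did not keep theirs. Of 21 tested in both lines, 11 were called higher with ATRA and 7 higher with Corin in U-937, 7 were called in opposite directions, and the difference was called for 14. ITGAM stood at 104 ± 6.35 CPM (SD, n = 2) with ATRA and 54.9 ± 3.74 CPM with Corin in U-937 (difference between lines 6.21, SE 0.152, adjusted p = 2.12e-13), and CD68 at 274 ± 11.7 against 81.4 ± 7.73 CPM (3.01, SE 0.112). The opposite turn was seen for MYC and the ribosome biogenesis genes, 12 of 21 of which were called in opposite directions. In U-937 18 of the 21 were called higher with Corin, against 22.8% of all genes tested there. In SKNO-1 their differences were small, with 0 past 2-fold. The share called in opposite directions over all genes was not counted. MYC was at 39.2 ± 1.21 CPM with ATRA and 209 ± 11.9 CPM with Corin in U-937 (difference -2.75, SE 0.098). Genes known from deacetylase inhibition were divided too, as CDKN1A was higher with ATRA in U-937, at 15.3 ± 3.70 against 8.26 ± 0.0516 CPM (difference 4.07, SE 0.245).

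**Figure D5:**
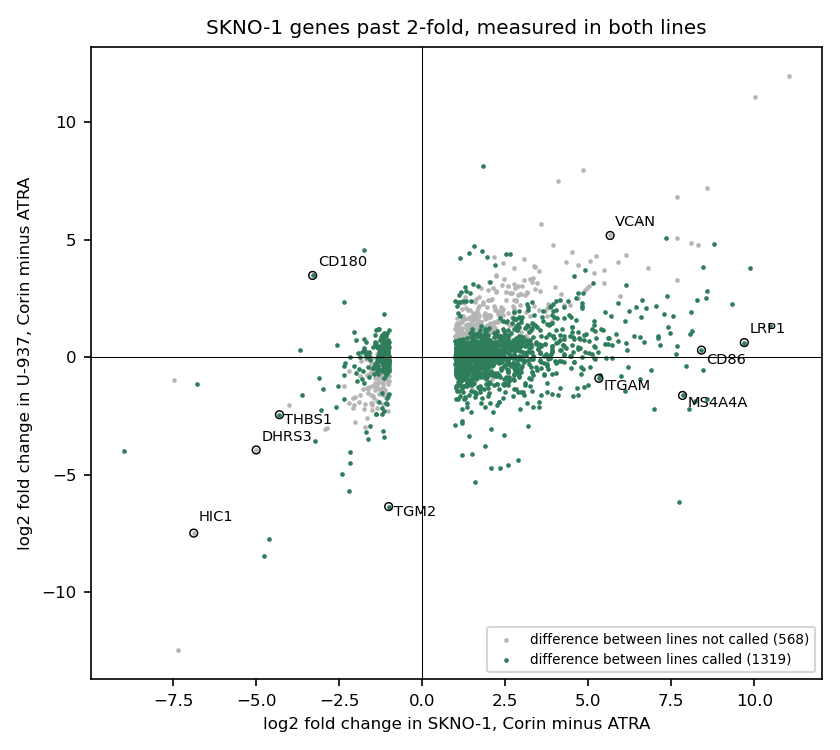
Each point is a gene at least 2-fold different between the agents in SKNO-1 and tested in both lines, with the log2 fold change (Corin minus ATRA) in SKNO-1 on the horizontal axis and in U-937 on the vertical axis. Green marks genes whose difference between lines was called. HIC1 and VCAN lie near the same value in both lines, LRP1 and CD86 near 0 in U-937, and CD180, MS4A4A and ITGAM on opposite sides of 0.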

How the data were processed

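The members and gene lists were chosen with earlier results of these data known. RNA was made into libraries with a stranded total RNA kit, per the labels' protocols; the submitters' processing notes name STAR, RSEM, Trimmomatic, DESeq2, deepTools and hg38, and strand use and the annotation release are not given in the sources used here. The authors deposited RSEM expected counts for 60603 genes, of which 45 Y copies of the pseudoautosomal region were added to their X copies, and TPM per library. Of positive counts 20.4% were not whole and were rounded. The 2 libraries of each agent were compared with edgeR 4.0.16 (filterByExpr, TMM, robust quasi-likelihood test, R 4.3.3) without a replicate block, with 2 residual degrees of freedom and a biological coefficient of variation of 0.0427; calls need a Benjamini-Hochberg adjusted p under 0.05. Lines were compared by an interaction contrast in a fit of 8 libraries. The SE was taken from the fold change and the F statistic of each gene and is not given where a group has 0 counts; then folds are against 3 counts over the group. With 1 to 3 counts, ratios carry exact conditional 95% intervals, which cover counting error only. The text names, per direction, the 10 coding genes and 3 long noncoding RNAs that differed most (called, with a symbol, groups apart, averaging 5 CPM or more), and genes of the lists. Positions are those of GENCODE release 44 (GRCh38), matched by identifier for 60261 genes. The test was tested on simulated data with known changes. Alternatives were DESeq2 1.42.0, other scalings, no filter, a GC correction, a replicate block, other sets of libraries and each library left out.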

Additional observations from a re-analysis of the deposited data

Results flagged for a closer look

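Of the 26 genes with the largest differences, 21 were tested in both lines, and for 18 of them the Corin against ATRA difference was not the same in SKNO-1 as in U-937, by an interaction contrast in edgeR (quasi-likelihood, Benjamini-Hochberg adjusted). Over all genes 39.3% were called in that contrast. The 26 genes were picked for their large difference in SKNO-1, which the contrast uses again, so the count of 18 is a description that this choice favours. Values are SKNO-1 minus U-937 on the log2 scale, with 2 libraries per group. MS4A4A had 9.46 (SE 0.304, adjusted p = 9.49e-11), from log2 fold changes of 7.84 in SKNO-1, where ATRA had few counts, and -1.62 in U-937. There ATRA was the higher group, at 142 ± 0.378 CPM (SD, n = 2) against 45.5 ± 9.37 CPM. CD180 was the converse, with -6.79 (SE 0.161, adjusted p = 2.05e-13), and stood at 3.36 ± 0.575 CPM with ATRA and 36.8 ± 1.55 CPM with Corin in U-937. CD86 had 8.09, and its U-937 contrast was 0.31. CAPG had 6.06, and U-937 held 366 ± 34.9 and 559 ± 79.8 CPM of it with ATRA and Corin.

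LRP1 had 9.09, a value that rests on 1 count with ATRA in SKNO-1. ADAM28 had 9.18 and RGPD1 4.30, both under 2 CPM in U-937, and FCGR2B had 6.02. MIAT, a long noncoding RNA, had 4.30. Among genes higher with ATRA in SKNO-1, THBS1 had -1.87, ADAMTS14 -1.64, SIPA1 -1.33, VSIR -0.82, TRIB1 -0.56 and EIF1B -0.52, each with the same direction in U-937 and a smaller gap there. SLC2A5 had 0.34, with a wider gap in U-937. The neighbours MIR646HG and C20orf197 had -2.54 and -1.43. The cause of these differences was not tested.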

How the results depend on the processing

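The 10113 genes called in SKNO-1 were 10084 with DESeq2's size factors, 10047 with library totals, 10845 of 28030 with no filter, 8160 with the DESeq2 Wald test, 7338 with all 8 SKNO-1 libraries in the fit, 10283 with the 6 treated ones and 9025 to 9903 with 1 library left out. Removing the GC trend gave 10774 calls, 40.9% of them higher with Corin in place of 50.6%, and moved the median of all genes to -0.091. Replicate numbers are shared between the groups, but nothing in the labels says that they pair the libraries, there are only 2 pairs, and their deviations had a correlation of -0.0193. With the replicate number as a block 9707 genes were called, and 10442 with the block and the GC trend removed. The 7422 genes that differed between lines were 7058 with the block and 6083 to 7915 with 1 library left out. Lysosome genes higher with ATRA numbered 1 in place of 3 without Corin replicate 2, with DESeq2 and with all 8 libraries. The 26 genes with the largest differences kept their direction under all 13 alternatives, and their call under those that kept 2 libraries per group. They were picked from the same libraries for large differences with the groups apart, so the choice favours this outcome. SPI1, higher with ATRA by a small margin, lost its call without ATRA replicate 2 (adjusted p = 0.102), with DESeq2 (0.0607) and with all 8 libraries (0.306). Of 159 named genes followed through the alternatives, 6 (RARA, TLR2, GFI1, SPI1, CCR3 and RAB3A) lost a call under any alternative and 0 reversed.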
